A study of Rattus norvegicus with 10 samples.

Results

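The renin-angiotensin system was read here from 7 genes in the abdominal aorta of BN (Brown Norway) and LOU rats: Agt, Ace, Agtr1a, Agtr1b, Agtr2, Enpep and Mas1. Every probe set annotated to 1 of these symbols was taken, which gave 11 of the 15866 probe sets on Affymetrix arrays other than controls, and 7 of 10411 named genes. Ace, Agtr1a, Agtr2 and Enpep had 2 probe sets each and the other 3 genes had 1. There were 5 arrays of BN rats and 5 of LOU rats. Both strains are inbred, and no rat was treated. Each array is labelled with an age of 5 weeks, although the growth notes allow up to 18, and no sex is stated. The labels name the abdominal aorta as the tissue throughout, although the extraction notes also mention thoracic aorta. They do not say that each array came from a separate rat, so the p-values measure the spread between these arrays, which may be technical.

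Angiotensinogen, the product of Agt, is cut to angiotensin I, which angiotensin-converting enzyme (Ace) turns into angiotensin II. Angiotensin II constricts arteries and promotes growth of their wall mainly through type 1 receptors, for which rats carry a pair of genes, Agtr1a and Agtr1b. The type 2 receptor (Agtr2) and the receptor encoded by Mas1, which binds a shortened angiotensin peptide, are known for opposing effects. Enpep encodes aminopeptidase A, which trims angiotensin II to angiotensin III.

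No difference between BN and LOU in the 11 probe sets was larger than the spread between arrays by the test used. By limma's test over all probe sets, with Benjamini-Hochberg adjustment at 0.05, 0 of 11 passed, where 0.788% of all 15866 probe sets did (0.246% higher and 0.542% lower in BN). At an unadjusted limma p under 0.05 the count was again 0 of 11, against 13.3% of all probe sets. In 0 of 11 were the BN and LOU signals free of overlap, against 4.18% of all. Log2 differences (BN minus LOU) were positive for 5 probe sets and negative for 6, with a median of −0.04, beside −0.03 over all probe sets. The adjusted p-values of the members ran from 0.405 to 0.995. The widest point differences were −0.97 for Agt and −0.45 for 1 of the Ace probe sets.

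**Figure D1:**
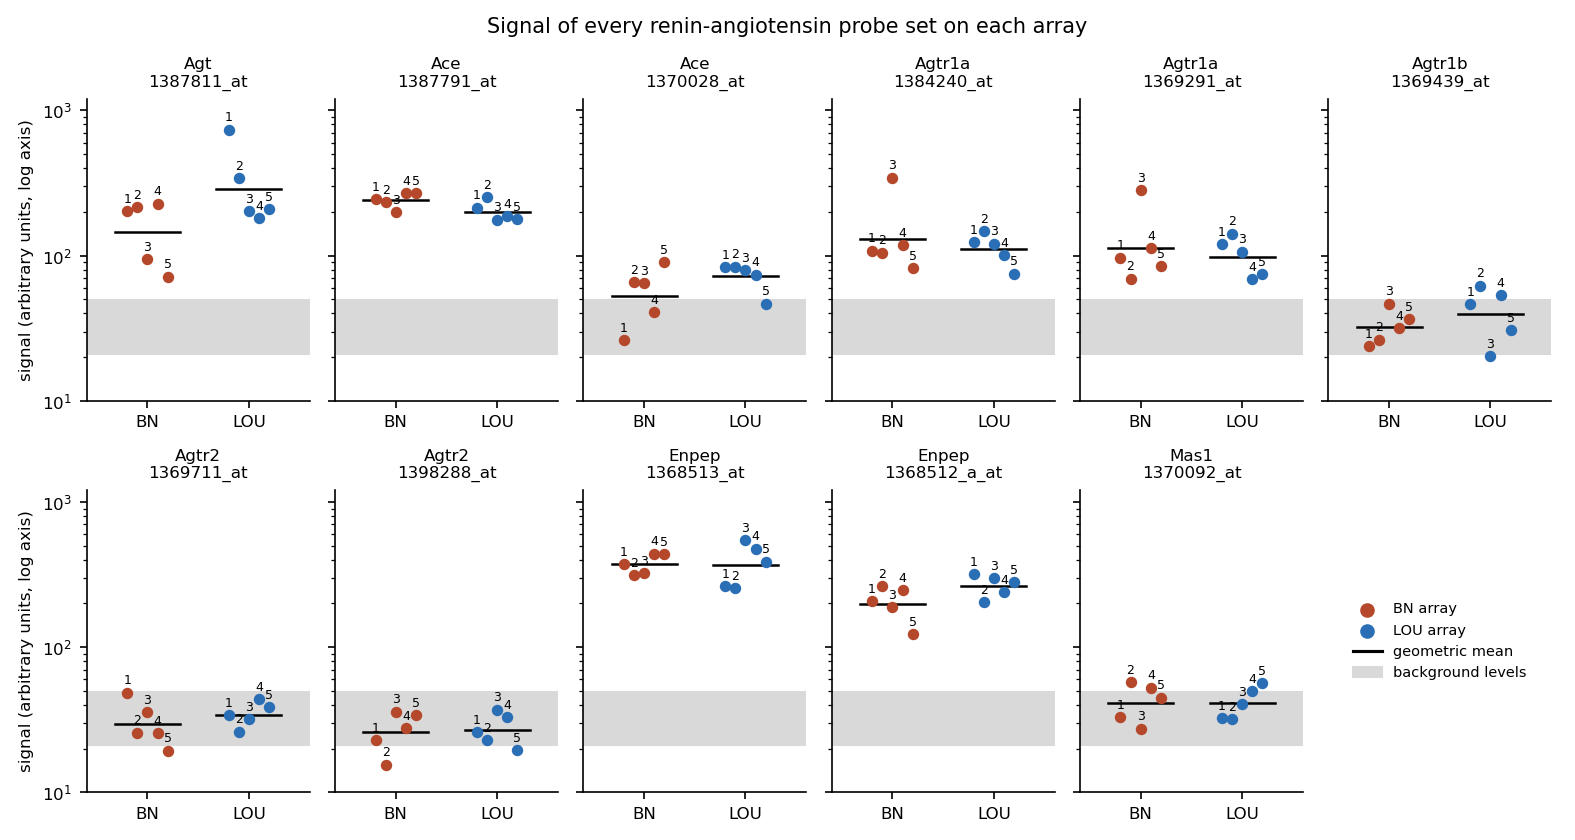
Signal of each of the 11 probe sets (arbitrary units, log axis) on 5 BN and 5 LOU arrays, numbered by replicate, with the geometric mean of each strain as a line and the range of background levels (21.2 to 49.2) shaded. Every probe set overlaps between strains. BN array 3 stands high in both Agtr1a probe sets, and LOU array 1 in Agt.

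Signals are arbitrary units scaled to a common mean on every array, and they rank arrays for 1 probe set, not genes against each other. The background level of an array was set at the 95th percentile of 45 bacterial and phage control probe sets, and it ran from 21.2 to 49.2. Of the 11 probe sets, 6 lay above it on all 10 arrays, as did 63.0% of all probe sets: those of Agt, Agtr1a and Enpep and 1 of Ace. Defining markers of smooth muscle (7 of 7) and endothelium (6 of 6 measured) were above background on all 10 arrays. Of 5 kidney tubule markers 1 was above background on all arrays and 3 on none, and of 5 adrenal cortex markers 0 and 2. For 5 hepatocyte markers these counts were 2 and 0. Among all cell type markers tested, Mbp, a myelin gene of Schwann cells, passed limma's strain test, with a mean of 475 in BN and 141 in LOU (adjusted p = 0.0460). The next were Mb, of striated muscle, at 538 in BN and 32.8 in LOU (limma adjusted p = 0.0588), Pi16, of fibroblasts, at 389 in BN and 840.0 in LOU (0.0730), and Sox10, of Schwann cells, at 81.3 in BN and 12.1 in LOU (0.0799), where no LOU array was above background. Within the striated muscle list, Ckm and Myh1 also had positive log2 differences (0.34 and 1.18). Acta1, Tnnt3 and Atp2a1 were negative (−0.06, −0.20 and −0.33). In the fibroblast list, Pdgfra, Dpt, Dcn and Lum were negative (−0.80, −0.78, −0.53 and −0.22) and Col1a1 was at 0.06. The part of these cell types in the members' signals was not tested. BN array 3 stood apart in sympathetic neuron markers, whose summed signal over 6 genes was 11510 there and 306 to 552 on the other BN arrays, against 165 to 1503 on LOU arrays. LOU array 1 stood apart in macrophage markers, with a summed signal over 6 measured genes of 2663 against 858 to 1248 on the other LOU arrays, and in lymphocyte markers (671 against 214 to 279).

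Agt, the only source of angiotensin peptides, gave the largest point difference of the members. Its signals were 202, 216, 94.1, 228 and 71.8 on BN arrays 1 to 5, against 735, 343, 203, 181 and 210 on LOU arrays 1 to 5 (the last 209.5 before rounding). BN arrays 3 and 5 lay below every LOU array, LOU arrays 1 and 2 lay above every BN array, and the other 6 arrays fell between 181 and 228. The mean was 162 ± 73.4 in BN and 334 ± 233 in LOU (SD, n = 5 each). The log2 difference was −0.97 with a 95% interval of −1.999 to 0.06 (limma adjusted p = 0.405), so these arrays leave room for anything between a LOU level 4.00-fold that of BN and a BN level 1.04-fold that of LOU. Without LOU array 1 the difference was −0.63, and without both that array and BN array 3 it was −0.47.

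Agt also varied more within a strain than most genes. Its within-strain SD on the log2 scale was 0.81, wider than that of 98.5% of the 10001 probe sets above background on all arrays. Adipocytes are a known source of angiotensinogen, and the aorta carries fat on its outer side. The mean of 5 measured adipocyte markers (Plin1, Lep, Fabp4, Cfd and Lpl, each centred over the 10 arrays on the log2 scale) was 0.38, 0.54, −0.24, 0.27 and −1.12 on BN arrays 1 to 5, against 0.81, 0.53, −0.57, −0.69 and 0.09 on LOU arrays 1 to 5. In LOU the order of the 5 arrays was the same for Agt and for the adipocyte mean. In BN, arrays 3 and 5 were the lowest in both, while the highest Agt signal was on array 4 and the highest adipocyte mean on array 2. Of these markers 4 were above background on all arrays and Lep on none, and their summed signal ran from 1983 to 9806 in BN and from 3379 to 13512 in LOU. The array with the lowest Agt signal of its strain also had the lowest adipocyte mean (BN array 5 and LOU array 4), and LOU array 1, with the highest Agt signal, had the highest adipocyte mean. LOU array 1 was also the one with high macrophage and lymphocyte markers, whose part in the Agt signal was not tested. The mean of 5 measured brown adipocyte markers, centred alike, was 1.80, 2.19, 0.05, 0.51 and −1.55 on BN arrays 1 to 5. On LOU arrays 1 to 5 it was 0.45, 0.04, −1.72, −2.08 and 0.31. Of these markers, Ucp1 averaged 6353 in BN and 2585 in LOU (limma adjusted p = 0.506), the opposite direction to Agt. Their part in the Agt signal was not tested either.

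Read at like adipocyte levels, the Agt signals of the strains lay apart on some arrays and not on others. BN arrays 1 and 2, at adipocyte means of 0.38 and 0.54, gave Agt signals of 202 and 216, against 343 on LOU array 2 at 0.53. BN array 3, at −0.24, gave 94.1, against 203 and 181 on LOU arrays 3 and 4, which had lower adipocyte means of −0.57 and −0.69. BN array 4, at 0.27, gave 228, against 209.5 on LOU array 5 at 0.09. With the adipocyte mean as a covariate in the fit, the Agt difference was −0.90 with a 95% interval of −1.40 to −0.40 and an SE of 0.22, against 0.46 without the covariate. Its limma adjusted p was 0.0869 (unadjusted 0.00284), which still missed the threshold, in a fit where 268 probe sets passed. In whole tissue, fewer cells of a type and less RNA per cell cannot be told apart.

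**Figure D2:**
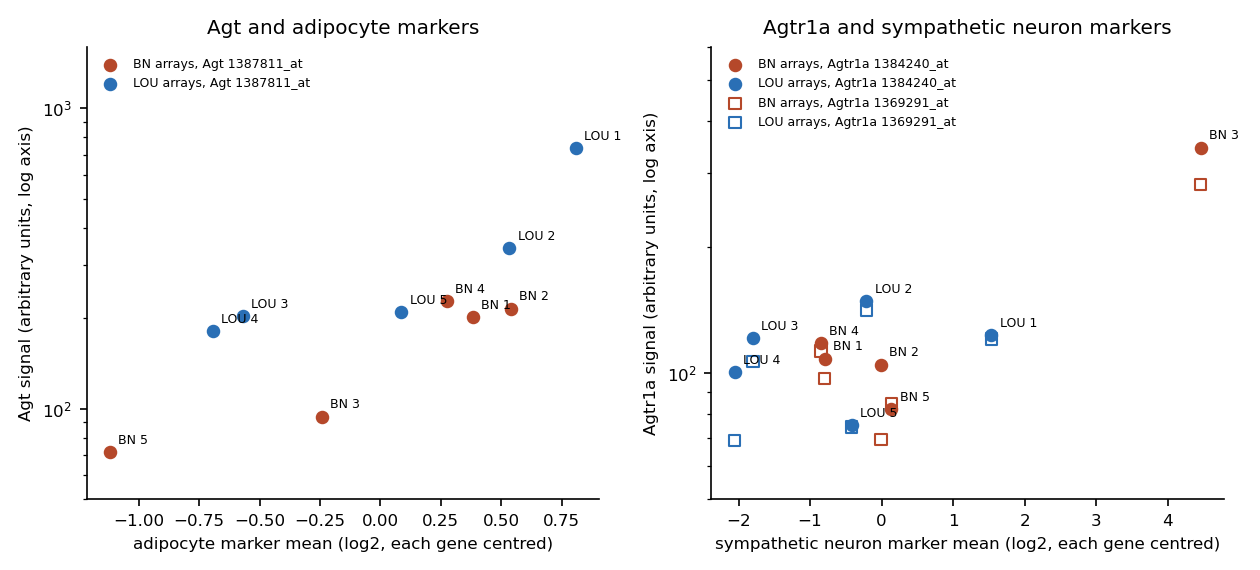
Left, Agt signal (arbitrary units, log axis) of each array against its adipocyte marker mean (log2, each gene centred). Right, the signals of both Agtr1a probe sets against the sympathetic neuron marker mean. BN array 3, at a sympathetic neuron mean of 4.46, carries the highest Agtr1a signals, 345 and 282. BN arrays are red and LOU arrays blue.

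Ace, which makes angiotensin II and breaks down bradykinin, gave point differences of opposite sign in its 2 probe sets. Probe set 1387791_at had signals of 245, 234, 199.5, 269.7 and 270.1 on BN arrays 1 to 5, against 214, 251.5, 177, 187 and 177 on LOU arrays 1 to 5. BN arrays 4 and 5 lay above every LOU array and LOU arrays 3, 4 and 5 below every BN array, with the rest overlapping. The mean was 244 ± 29.2 in BN and 201 ± 31.8 in LOU, a log2 difference of 0.28 (95% interval −0.04 to 0.60, limma adjusted p = 0.443, n = 5 each). This was the steadiest of the 6 well-measured members, with a within-strain SD of 0.20 that was wider than only 26.1% of probe sets above background.

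Probe set 1370028_at of Ace was far dimmer, with 26.1, 65.8, 64.4, 40.9 and 90.3 on BN arrays 1 to 5, of which 4 were above background. Its LOU signals were 83.5, 84.1, 79.4, 74.0 and 46.8, all above background. BN arrays 1 and 4 lay below every LOU array, and BN array 5 above every one. The mean was 57.5 ± 24.8 in BN and 73.6 ± 15.5 in LOU, a log2 difference of −0.45 (−1.17 to 0.27, limma adjusted p = 0.596). Without BN array 1, whose signal was not above background, it was −0.19.

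The disagreement between probe sets of 1 gene was tested for 4 genes, as the log2 signal of the brighter minus that of the dimmer probe set on each array. For Ace it averaged 2.20 ± 0.74 in BN and 1.47 ± 0.29 in LOU (SD, n = 5 each), and BN arrays 1 and 4, at 3.23 and 2.72, lay above all others. The strain difference of 0.73 gave p = 0.0714 by an exact two-sided permutation test (adjusted over 4 pairs 0.286), where the smallest p for 5 against 5 arrays is 0.00794. Those 2 arrays were the ones on which the dim probe set was lowest, at 26.1 and 40.9. On BN array 1 its signal of 26.1 lay under that array's background of 49.2, so the value of 3.23 is not a measured ratio, and without that array the strain difference was 0.47 (exact permutation p = 0.111). Averaging both Ace probe sets gave a log2 difference of −0.08 (95% interval −0.51 to 0.34, limma adjusted p = 0.880), so the sign of the gene's difference depends on which probe set is read.

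For the other 3 genes the strain difference in disagreement did not pass the test either. Enpep averaged 0.91 ± 0.57 in BN and 0.47 ± 0.50 in LOU (exact permutation p = 0.278, adjusted 0.556), a strain difference of 0.43 that was 0.20 without BN array 5. Agtr2 averaged 0.17 ± 0.75 in BN and 0.35 ± 0.43 in LOU, and Agtr1a 0.21 ± 0.25 in BN and 0.17 ± 0.22 in LOU (adjusted exact p = 0.746 for both).

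**Figure D3:**
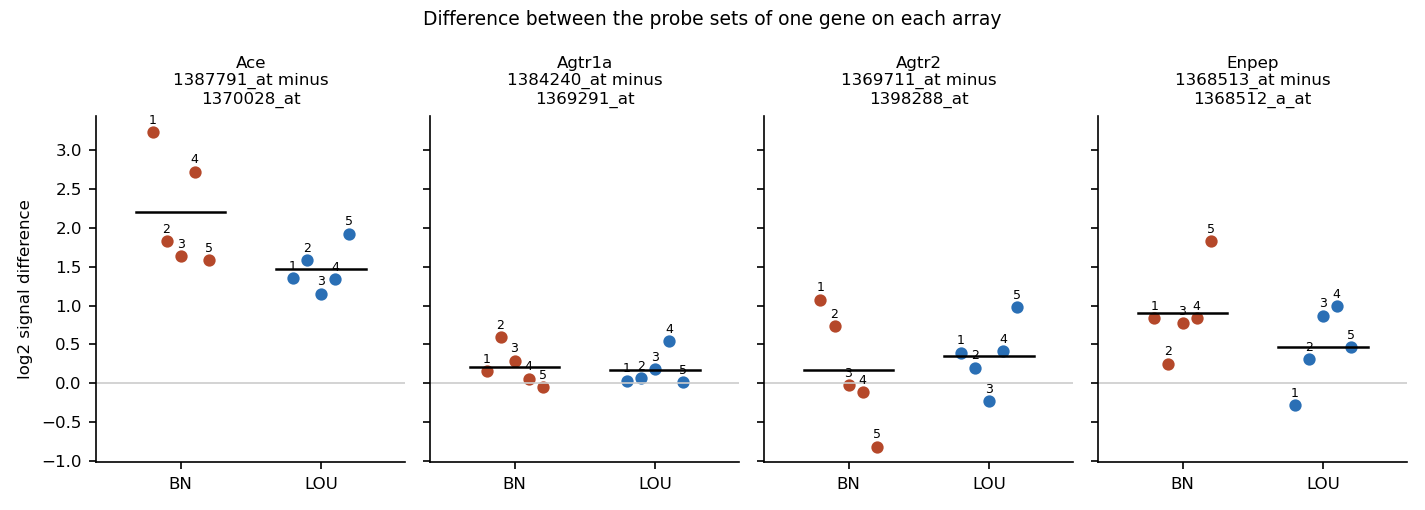
Log2 signal of the brighter minus the dimmer probe set of Ace, Agtr1a, Agtr2 and Enpep on each of 5 BN (red) and 5 LOU (blue) arrays, numbered by replicate, with strain means as lines. The Agtr1a values stay within −0.05 and 0.59, while those of Ace run from 1.15 to 3.23.

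Of the 4 pairs, that of Agtr1a had a correlation over the 10 arrays that passed the test. Pearson's r was 0.93 (permutation p = 0.00048, adjusted over 4 pairs 0.00192) and Spearman's rho 0.89 (permutation p = 0.00128, adjusted 0.00512), and r was 0.78 without the 2 arrays farthest from the median and 0.93 with strain means subtracted. The Ace pair gave r = −0.16 and rho = 0.14, Agtr2 −0.02 and −0.07, and Enpep −0.05 and 0.09 (permutation p-values 0.680 and 0.709, 0.965 and 0.866, and 0.891 and 0.813, all adjusted to 0.866 or 0.965). Without the 2 farthest arrays those r values were −0.24, 0.40 and 0.14. The platform annotation ties both probe sets of Ace, of Agtr2 and of Enpep to 1 sequence record per gene, and those of Agtr1a to 2 different records. The suffix of the Enpep probe set 1368512_a_at marks a design that reads several transcripts of the gene. Probe sequences were not used here, so the stretch of transcript that each probe set reads, and any base that differs between BN and LOU within it, was not tested. The 3′ to 5′ signal ratio of the actin control probe sets ran from 3.47 on BN array 1 to 5.39 on BN array 3. That of GAPDH ran from 1.38 to 2.01. Whether RNA integrity bears on these pairs was not tested.

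The rat's pair of type 1 receptor genes lie on different chromosomes, Agtr1a on 17 and Agtr1b on 2, and encode receptors of near-identical function. The platform annotation assigns them separate probe sets, and whether these also bind the other gene's transcript was not tested. Their start regions are shown as a description of both genes, and the part of these regions in the signals was not tested. Both stretches are from RefSeq on the GRCr8 build, which is itself a BN genome, and are given 5′ to 3′ on the minus strand, with 90 bases before the annotated start and 50 from it on. Capitals mark a TATAAA motif.
Agtr1a, chr17:34435383-34435522: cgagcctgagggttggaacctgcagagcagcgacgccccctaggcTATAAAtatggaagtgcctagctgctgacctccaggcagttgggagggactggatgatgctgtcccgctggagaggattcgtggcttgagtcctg
Agtr1b, chr2:104849213-104849352: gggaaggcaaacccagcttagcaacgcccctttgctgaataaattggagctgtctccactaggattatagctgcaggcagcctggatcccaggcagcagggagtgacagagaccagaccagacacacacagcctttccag
Over the full windows of 300 bases, the longest run of letters that Agtr1a and Agtr1b share is 11 bases. TATAAA starts 45 bases before the start in Agtr1a and was searched on both strands. It is in the Agtr1a and Ace windows (in Ace on the reverse strand) among 6 members with a window, and in 14.2% of 33469 windows. These letters describe the reference sequence and say nothing of binding.

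Agtr1a, the main type 1 receptor gene of rat arteries, was high on 1 BN array in both probe sets. Probe set 1384240_at gave 108, 105, 345, 118 and 81.9 on BN arrays 1 to 5, against 123, 148, 121, 100.3 and 75.0 on LOU arrays 1 to 5. Probe set 1369291_at gave 96.9, 69.4, 282, 113 and 84.5 in BN, against 121, 141, 107, 68.9 and 74.3 in LOU. In each probe set BN array 3 lay above every other array, and the other 4 BN arrays lay inside the LOU range. The log2 differences were 0.24 (95% interval −0.58 to 1.05, limma adjusted p = 0.823) and 0.19 (−0.63 to 1.01, adjusted p = 0.860). Without BN array 3 they turned to −0.12 and −0.14.

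The same array held the high sympathetic neuron markers, at a centred log2 mean of 4.46, where the remaining BN arrays ran from −0.85 to 0.14. Th, the rate-limiting enzyme of noradrenaline synthesis, was at 2608 on BN array 3, at 84.2 to 131 on the other BN arrays, and at 42.6 to 366 on LOU arrays. LOU array 1, with the next highest sympathetic neuron mean (1.53), had Agtr1a signals of 123 and 121, inside the range of the other LOU arrays. The part of nerve cells in the Agtr1a signal was not tested.

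For Agtr1b, the other type 1 receptor gene, BN array 3 was not the highest array. It gave 23.7, 26.4, 46.7, 31.7 and 36.5 on BN arrays 1 to 5, of which 3 were above background, against 46.5, 62.0, 20.3, 53.4 and 30.7 on LOU arrays 1 to 5, of which 4 were. BN array 3 was the highest BN array, but LOU arrays 2 and 4 lay above it. The log2 difference was −0.30 (95% interval −1.003 to 0.40, limma adjusted p = 0.723). It ran from −0.54 without LOU array 3 to −0.14 without LOU array 2.

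The genes of the opposing receptors were dim, and no difference was detectable at these signals. For Agtr2, probe set 1369711_at lay between 19.4 and 48.5 in BN, above background on no BN array, and between 26.2 and 43.8 in LOU, where 3 arrays were above background. The measured means were 31.0 ± 11.4 in BN and 34.9 ± 6.69 in LOU, and the fitted log2 difference had a 95% interval of −0.77 to 0.33 (limma adjusted p = 0.739). Probe set 1398288_at of Agtr2 had 2 BN arrays and 1 LOU array above background, with measured means of 27.3 ± 8.37 in BN and 27.7 ± 7.23 in LOU, so most of its signals are not separable from background and its difference is not read here.

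Mas1 gave 32.8, 57.4, 27.5, 52.6 and 44.9 on BN arrays 1 to 5, against 32.6, 32, 40.7, 49.9 and 56.5 on LOU arrays 1 to 5. It was above background on 3 BN arrays and all 5 LOU arrays, and the strains overlapped almost entirely. The means were 43.0 ± 12.7 in BN and 42.3 ± 10.7 in LOU, and the interval of the log2 difference ran from −0.54 to 0.56.

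Enpep, the aminopeptidase that removes angiotensin II, was well above background in both probe sets. Probe set 1368513_at gave 372, 313, 323, 440.0 and 438 on BN arrays 1 to 5, against 262, 254, 548, 476 and 387 on LOU arrays 1 to 5. LOU arrays lay on both sides of the BN range, with arrays 1 and 2 below it and 3 and 4 above it. The log2 difference was 0.02 (95% interval −0.51 to 0.55, limma adjusted p = 0.979).

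The other Enpep probe set, 1368512_a_at, gave 207.7, 263, 189, 246 and 123 in BN, against 317, 205, 299.7, 239 and 279.9 in LOU. LOU arrays 1, 3 and 5 lay above every BN array, and BN arrays 3 and 5 below every LOU array. The means were 206 ± 54.6 in BN and 268 ± 45.9 in LOU, a log2 difference of −0.41 (−0.90 to 0.07, limma adjusted p = 0.459), which was −0.24 without BN array 5. BN array 5 was the lowest of all 10 arrays in this probe set and among the highest BN arrays in the other. Averaged over both probe sets, Enpep differed by −0.20 (−0.57 to 0.18, adjusted p = 0.657).

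**Figure D4:**
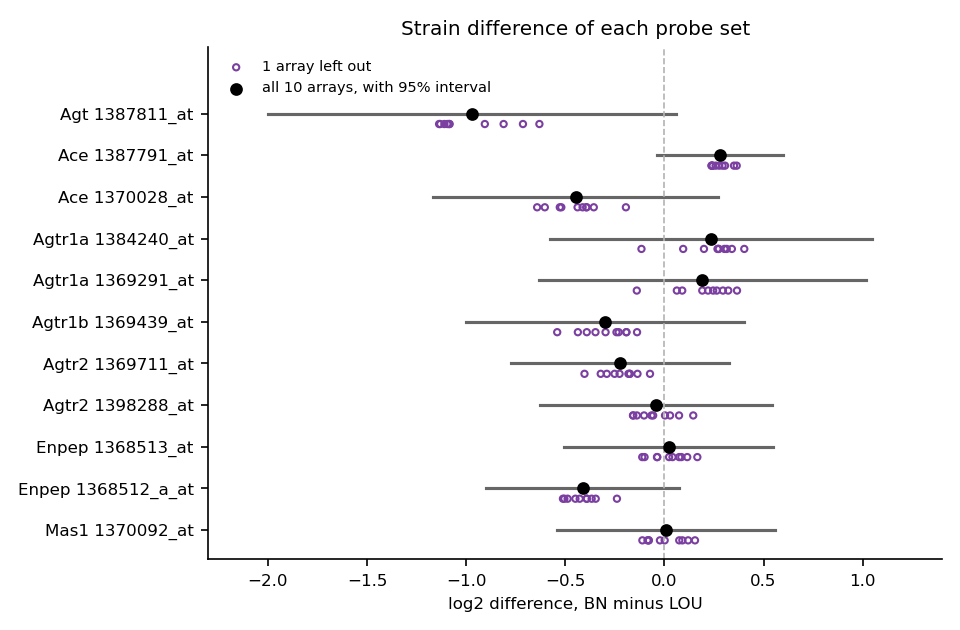
Log2 difference (BN minus LOU) of each of the 11 probe sets with its 95% interval from limma over 10 arrays (black), and the difference with each array left out in turn (open circles). All 11 intervals cross 0. Agt runs from −1.14 to −0.63 with 1 array left out, and both Agtr1a probe sets cross 0 when BN array 3 is left out.

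The genes most like each well-measured member were taken as those with the highest Pearson correlation over the 10 arrays after strain means were subtracted, among 7366 other genes above background on all arrays. Being the highest of so many, they are a description, and all values come from the same 10 arrays. For Agt they were Gbe1, the glycogen branching enzyme (r = 0.98), the mitochondrial ribosome gene Mrpl35 (0.98) and Nr1h3, which encodes the sterol-sensing liver X receptor alpha (0.97). Gbe1, Mrpl35 and Nr1h3 had positive log2 strain differences of 0.26, 0.34 and 0.34, while that of Agt was −0.97.

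For Agtr1a they were Brms1l (0.96), Atp9a (0.95) and Tmod2 (0.95) in probe set 1384240_at. In probe set 1369291_at they were Ubqln2 (0.96), Tmem30a (0.96) and Dpysl2 (0.95). BN array 3 stood far above the other arrays in both Agtr1a probe sets, and how far these correlations rest on that array was not tested. The bright Ace probe set was most like Elf2 (0.93), Dock9 (0.91) and Epb41 (0.89). Enpep was most like Rrad (0.96), Cacnb2, a subunit of voltage-gated calcium channels (0.95), and Rassf3 (0.93) in probe set 1368513_at, and like Cmc2 (0.92), Slc16a7 (0.92) and Psmd8 (0.91) in probe set 1368512_a_at.

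The wider pathway was read from 3 lists, chosen with earlier results of these data known. Of 18 enzymes and proteins that cut or bind angiotensin peptides, 12 were measured in 15 probe sets. None of the 15 passed limma's test, against 0.788% of all probe sets, and 2 had an unadjusted p under 0.05, against 13.3% of all. Of the 15, 11 were negative and 4 positive, with a median log2 difference of −0.16 beside −0.03 over all probe sets. The smallest p-values belonged to the cathepsin genes Ctsa, at 773 ± 98.2 in BN and 971 ± 128 in LOU (difference −0.33, limma adjusted p = 0.353), and Ctsd, at 1924 ± 857 in BN and 1137 ± 335 in LOU (difference 0.70, limma adjusted p = 0.367). Nln, which encodes neurolysin, was above background on 0 BN and 2 LOU arrays. Erap1, an aminopeptidase that trims angiotensin peptides as well as antigens, gave −0.46 in 1 probe set and −0.12 in another (adjusted p = 0.424 and 0.765).

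Receptor partners and signalling genes did not pass in the fit reported here. Of 28 listed, 26 were measured in 38 probe sets, of which none passed limma's test, against 0.788% of all probe sets, and 8 had an unadjusted p under 0.05, against 13.3% of all. In this list 22 were negative and 16 positive, with a median log2 difference of −0.03, as over all probe sets. Egfr, the growth factor receptor through which type 1 receptors also signal, came closest. It gave 163, 151, 118, 160 and 199 on BN arrays 1 to 5, against 72.5, 70.2, 103, 105 and 76.7 on LOU arrays 1 to 5, and every BN array lay above every LOU array. Its log2 difference was 0.89 (95% interval 0.49 to 1.29, limma adjusted p = 0.0579), and its other probe set was above background on no array. It passed in 7 of 22 alternatives, with adjusted p-values from 0.0165 to 0.0491. Rgs2, which shortens signalling by the G protein of type 1 receptors, gave 0.48 and 0.53 in its 2 probe sets (adjusted p = 0.358 and 0.247). Mtus1, which encodes a protein that binds the type 2 receptor, gave 0.57 and 0.41 (adjusted p = 0.301 and 0.260). Rock2, the kinase that sustains contraction, gave −1.38 in a dim probe set and −0.24 and −0.10 in brighter ones.

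Of 30 genes reported to respond to angiotensin II in arteries, 28 were measured in 32 probe sets, and 1 passed limma's test, lower in BN, against 0.542% of all probe sets. That was Vcam1, the leukocyte adhesion molecule of endothelium, with 160, 118, 112, 174 and 124 on BN arrays 1 to 5, against 520, 421, 734, 359 and 599 on LOU arrays 1 to 5. Every BN array lay below every LOU array. The log2 difference was −1.91 (95% interval −2.40 to −1.43, limma adjusted p = 0.00396). In this list 24 probe sets were negative and 8 positive, with a median of −0.20 beside −0.03 over all probe sets, and 11 of 32 had an unadjusted p under 0.05, against 13.3% of all.

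The next smallest p-values in that list were those of Egr1, Icam1 and Tgfb1, none past the threshold. Egr1, an immediate early transcription factor, gave 741, 523, 294, 232 and 374 in BN, against 1070 (1069.6 before rounding), 1197, 5177, 8312 and 5664 in LOU. LOU arrays 3, 4 and 5 lay far above LOU arrays 1 and 2, and all 5 LOU arrays above BN (log2 −2.99, 95% interval −4.35 to −1.62, limma adjusted p = 0.0624). Icam1, another adhesion molecule, averaged 201 ± 25.9 in BN and 306 ± 27.9 in LOU (difference −0.61, limma adjusted p = 0.0652). Tgfb1, a growth factor that promotes matrix deposition, was 132 ± 20.1 in BN and 197 ± 8.79 in LOU (difference −0.59, limma adjusted p = 0.0730). Chosen after their values were seen, 1 probe set of Fos gave −3.66 (limma adjusted p = 0.144) and its other, dim one −0.20 (0.901), while Tnc, a matrix gene, gave 0.62 (0.335).

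**Figure D5:**
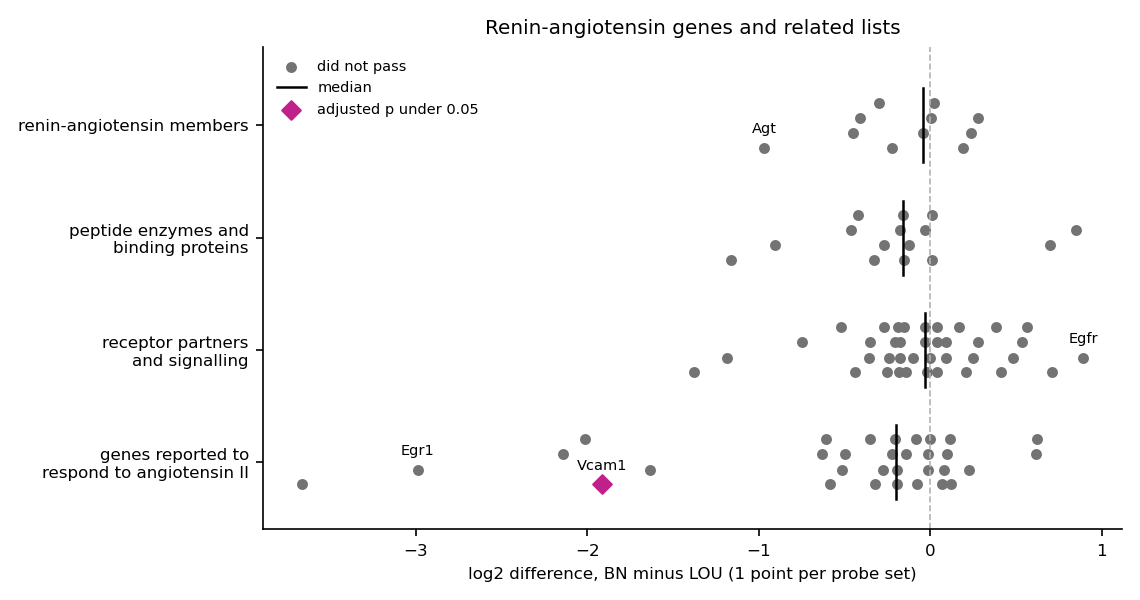
Log2 difference (BN minus LOU) of the 11 member probe sets and of 15, 38 and 32 probe sets of 3 related gene lists, 1 point per probe set, with list medians as lines (−0.04, −0.16, −0.03 and −0.20). The 1 diamond, Vcam1 at −1.91, is the probe set with an adjusted p under 0.05.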

How the data were processed

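The authors deposited 1 linear intensity for each probe set of each array. Per the labels' protocols, biotin-labelled cRNA was hybridised to Affymetrix arrays. RMA is named, with no version, in the submitters' processing notes, but the intensity values deposited by the authors run from 0 to 22219.9, with a 2% trimmed mean near 200.1 on every array, and were read as unlogged and scaled alike. For testing, log2(signal) was computed from them, with 4 values of 0 set to 0.1. No columns were left unmapped, and at most 0.358% of values were equal between 2 arrays.

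Differences (BN minus LOU) came from limma 3.58.1 (R 4.3.3), by lmFit and eBayes with strain as the sole term, over 15866 probe sets (57 controls excluded), and p-values were adjusted over all of them by Benjamini-Hochberg, at 0.05. Symbols came from the platform annotation, updated through the GRCr8 RefSeq table (12748 by gene identifier, 2 by accession, 33 as listed); 312 probe sets had several symbols and 2771 none. Signal over background and the number of arrays set the precision. Probe set pairs were compared with an exact permutation test over arrays, and correlations with 100000 permutations.

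Members were named without measured values, while lists, tests and alternatives were chosen with earlier results of these data known. Named genes are all members, and the called genes and the 4 smallest p-values of each list. Beside them are the 3 genes most like each member above background on all arrays. Fos, Tnc and the marker genes Mbp, Mb, Pi16 and Sox10 were added after their values were seen. So were Ucp1 and the marker genes given beside Mb and Pi16. Alternatives were a variance trend, median centring, a floor of 32, array weights, dropping the dimmest 40% of probe sets, a pseudocount of 16, quantile normalization, a block for replicate number, the adipocyte marker mean as a covariate, arrays left out, and 1 value per gene. Same-numbered arrays did not deviate together (correlations −0.05 to 0.01 across probe sets), so the numbers were not taken as pairs. Python 3.11.15, numpy 2.4.6, pandas 2.3.3 and matplotlib 3.10.9 were used.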

Additional observations from a re-analysis of the deposited data

Results flagged for a closer look

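In 3 of 22 groups of 5 arrays (11 probe sets in each strain), 1 array's signal lay far from the other 4 by Dixon's test. Chance gives about 1 in 20 such groups. Agtr1a had BN array 3 at 345 in probe set 1384240_at and at 282 in probe set 1369291_at. These flags share an array and a gene, and on the log2 scale the test singles out the first but not the second. The summed signal of 6 sympathetic neuron markers was 11510 on the same array. Ace probe set 1370028_at had LOU array 5 at 46.8, against 74.0 to 84.1 on the other LOU arrays, while its brighter probe set read 177 on that array, inside the LOU range.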

How the results depend on the processing

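Over 22 alternatives, 0 of the 11 member probe sets passed in any fit that held them. The smallest limma adjusted p was 0.0869, for Agt with the adipocyte covariate. The fit without dim probe sets did not hold Agtr1b, Agtr2, Mas1 or the dim Ace probe set. Fits by gene held 1 value for each member gene. Signs were kept in 204 of 229 recomputed member differences. That count includes fits whose estimates equal those reported, so their signs could not turn. These are the variance trend, the replicate block, the fit without dim probe sets and that of the brightest probe set per gene. The 25 turned signs fell on 6 probe sets, with the average over a gene's probe sets counted under its brightest one. Ace 1387791_at is among them through that average alone. Agtr2 1398288_at gave 0.0078 with median centring, 0.0034 with quantile normalization, 0.0018 with a floor of 32 and −0.16 to 0.15 with 1 array left out. Enpep 1368513_at gave −0.0067 and Mas1 −0.00086 with the adipocyte covariate, and −0.11 to 0.17 and −0.11 to 0.15 with 1 array left out. Without BN array 3 and LOU array 1, Enpep 1368513_at gave −0.048, Agtr1a −0.067 (1369291_at) and −0.077 (1384240_at), and the difference between the Agtr1a probe sets −0.010. With 1 array left out, Agtr1a ran from −0.14 to 0.37 (1369291_at) and from −0.12 to 0.40 (1384240_at), the difference between its probe sets from −0.052 to 0.14, that of Agtr2 from −0.41 to 0.066, that of Ace from 0.47 to 0.88 and that of Enpep from 0.20 to 0.60. Averaging probe sets by gene, Ace gave −0.084 and Enpep −0.20.

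Probe sets called among all genes numbered 125. They numbered 253 without the dimmest probe sets, 204 with a pseudocount, 242 with a variance trend, 268 with the adipocyte covariate, 75 without BN array 3 and LOU array 1, and 63 to 127 with 1 array left out. The calls in the 3 related lists, 1 with all arrays and the settings of the report, numbered 2 with quantile normalization or array weights, 3 with a floor, 4 with the adipocyte covariate, 5 without dim probe sets or with a variance trend, 6 with a pseudocount, and 1 to 3 with 1 array left out. Vcam1 was called in 21 of 22 alternatives, Egfr in 7, Egr1 and Tgfb1 in 5 each, Icam1 in 4, Mmp9 in 2, and Mme (with the adipocyte covariate) and Fos (without LOU array 2) in 1 each. Taking the replicate number as a block gave 23 called probe sets, 0 in the related lists (Vcam1 limma adjusted p 0.0841) and 0 members. The labels do not say whether the numbers pair the arrays, and the fit reported here did not take them as pairs. The cause of these shifts was not tested. Signal near background limits Agtr1b, Agtr2, Mas1 and the dim Ace probe set.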
